A study of Homo sapiens with 12 samples.

Results

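The 3 arrays of MDA-MB-231 cells with the lowest cyclin D1 message were compared with the 3 arrays on which cyclin D1 (CCND1) and its kinase partner CDK4 were both high. The series holds 12 Illumina BeadChip arrays of this ER-negative, mesenchymal-like breast cancer line, labelled as 4 treatments of 3 arrays each. These are siRNA pools against cyclin D1 or against CDK4/6, a non-targeting siRNA pool, and a group titled Control. The Control arrays are named no siRNA here, which is a reading of that title. The sets were chosen on measured levels and not by these labels. The lowest-CCND1 arrays (3 of 12) had a CCND1 intensity below 4000, and the all-targets-high arrays (3 of 12) had CCND1 above 10000 and CDK4 above 2000. The remaining arrays fell into 3 intermediate-CCND1 arrays (CCND1 from 4000 to 10000) and 3 low-CDK4 arrays (CCND1 above 10000, CDK4 below 2000).

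The target levels contradicted the sample labels. The lowest-CCND1 arrays carried the labels non-targeting siRNA 1, then no siRNA 2, then cyclin D1 siRNA 2. The all-targets-high arrays carried no siRNA 1, then cyclin D1 siRNA 1, then CDK4/6 siRNA 1, and values are given in these orders. Each set therefore mixes 3 labelled treatments, and each is 3 neighbouring columns of the deposited table. No array was given another treatment here, and the values below describe the sets alone. The chip, the position on it and the order of handling are named nowhere in the labels and cannot be told apart from the sets. The legends of the study speak of independent experiments for the plots of its arrays, while the labels tie no array to a culture. Each p-value therefore sets the difference between 2 sets of neighbouring columns against the spread within them, which may be technical.

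Cyclin D1 activates CDK4 and CDK6, which phosphorylate the retinoblastoma protein and so release the E2F transcription factors that switch on genes for DNA replication at the start of S phase. A later wave of genes for mitosis is switched on in G2 by the MuvB complex with B-MYB and FOXM1. ID proteins cannot bind DNA themselves and hold other helix-loop-helix factors away from it, and in breast cancer they have been linked to the epithelial-mesenchymal transition (EMT).

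CCND1 had an intensity of 2951 on the array labelled non-targeting siRNA 1, 2703 on no siRNA 2 and 3513 on cyclin D1 siRNA 2, against 13659 on no siRNA 1, 13878 on cyclin D1 siRNA 1 and 13952 on CDK4/6 siRNA 1. The mean was 3056 ± 415 on the lowest-CCND1 arrays and 13830 ± 152 on the all-targets-high arrays (SD, n = 3 each), a ratio of 0.221. The member just inside the threshold was at 3513 and the nearest array outside it, an intermediate-CCND1 array, at 4311. CDK4 averaged 2360 ± 71.1 on the lowest-CCND1 arrays and 2647 ± 110.2 on the all-targets-high arrays, while the low-CDK4 arrays lay between 274.9 and 408.6. CDK6, which the rule did not use, averaged 1525 ± 49.2 on the lowest-CCND1 arrays and 1369.7 ± 93.9 on the all-targets-high arrays. The 3 genes were left out of all tests, and these values are a description.

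**Figure D1:**
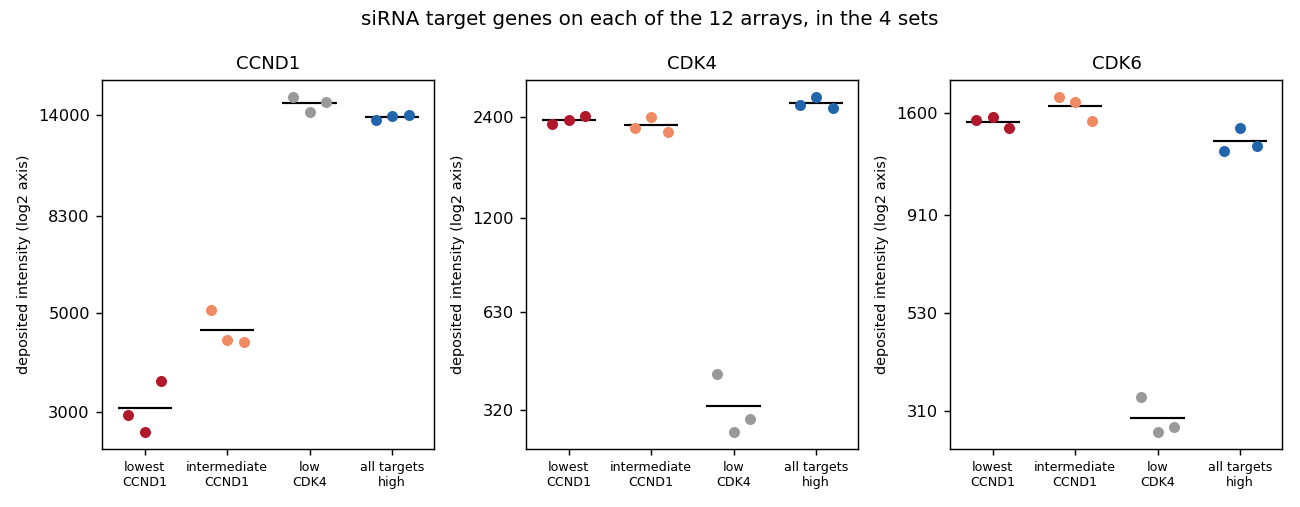
Intensity of CCND1, CDK4 and CDK6 on each of the 12 arrays (points, log2 axis) with the mean of each set (line). The lowest-CCND1 arrays lie between 2703 and 3513 for CCND1, the all-targets-high arrays between 13659 and 13952, and both sets have CDK4 above 2000.

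Of 14 listed markers of the line 12 were tested, and all 12 were above background on at least 1 lowest-CCND1 array. Their summed intensity was 59031 to 63455 on the lowest-CCND1 arrays and 58321 to 62896 on the all-targets-high arrays. The test called 0 of the 12, which does not bear on whether they are expressed. VIM (vimentin, the intermediate filament of mesenchymal cells) had a mean of 16181 on the lowest-CCND1 arrays and 15632 on the all-targets-high arrays. Of 10 luminal markers 7 were tested and 0 called, with a summed intensity of 10853 to 11154 on the lowest-CCND1 arrays, against 9922 to 10271 on the all-targets-high arrays, most of it from the keratins KRT18 and KRT19. The sets did not overlap, and 6 of the 7 had a difference above 0. ESR1, PGR and FOXA1 did not pass the filter on dim probes, and CDH1 (E-cadherin) averaged 47.3 on the lowest-CCND1 and 44.9 on the all-targets-high arrays, near the background level of 44.5. The summed intensity of the 6 tested leukocyte markers was 5275 to 5679 on the lowest-CCND1 arrays and 4742 to 5441 on the all-targets-high arrays, nearly all of it from CD68, and that of the 6 fibroblast markers was 5244 to 5439 against 4447 to 4981, nearly all from COL1A2. CD3D and CD163 were near the background level, PTPRC and CD3E did not pass the filter, and CD14 was the 1 marker of the 4 lists for other cell types that passed the test. The part of other cells in the results was not tested.

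Among the genes called at the adjusted threshold, more were lower than higher on the lowest-CCND1 arrays. Intensities were background-corrected, normalised and taken to log2, and a difference is the lowest-CCND1 minus the all-targets-high mean on that scale, which understates the change of dim genes. Of 13434 genes tested with limma (two-sided, Benjamini-Hochberg adjusted over all 26620 tested probes), 413 were called higher (3.07%) and 694 lower (5.17%) at an adjusted p below 0.05, so 62.7% of the calls were decreases. With a smaller offset in the background correction the counts were 114 higher and 423 lower, and the share of decreases was 78.8%. The median difference over all genes was 0.01. Decreases were also larger: 7 genes fell by more than 1 and 167 by more than 0.5, against 0 and 3 increases of those sizes. The 3 and 3 intensities did not overlap for 25.4% of all genes tested. The precision is limited by the number of arrays. An exact permutation test of 3 against 3 arrays cannot give a two-sided p below 0.1.

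**Figure D2:**
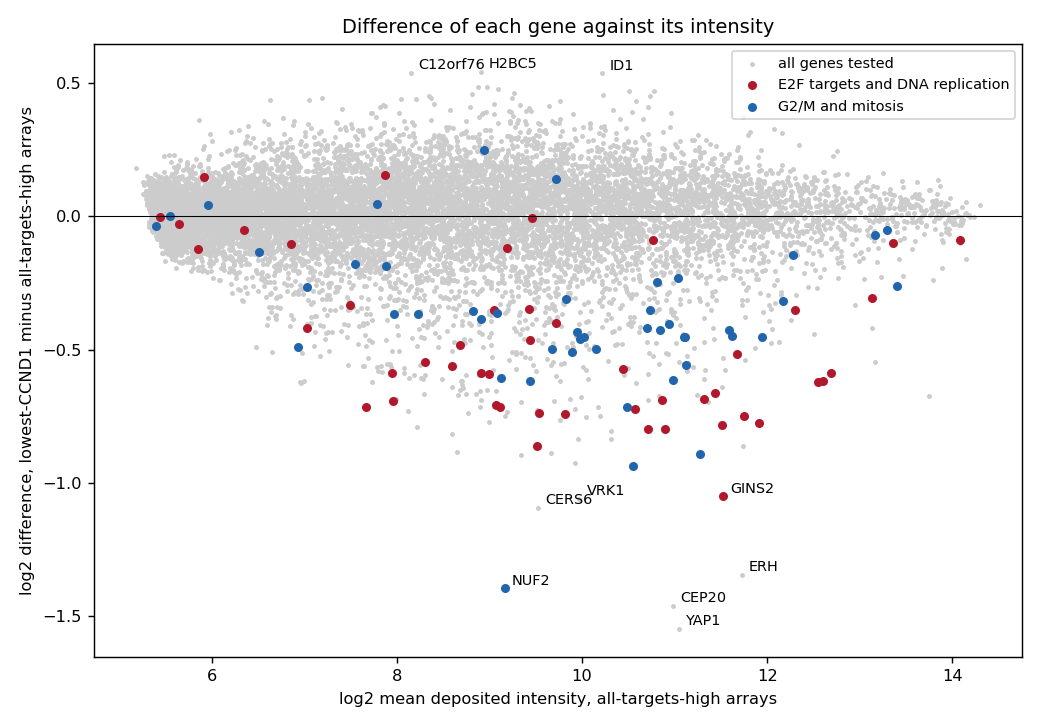
Difference of every tested gene (vertical axis, log2, lowest-CCND1 minus all-targets-high arrays) against the log2 of its mean intensity on the all-targets-high arrays, with E2F targets and DNA replication genes in red and G2/M and mitosis genes in blue. Most of both lists lie below 0, YAP1 is the lowest point at -1.55 and no called increase exceeds 0.54.

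The S-phase genes fell together. Of 48 tested E2F targets and DNA replication genes, 35 were called lower and 0 higher on the lowest-CCND1 arrays, with a median difference of -0.57. The 35 called lower were 72.9% of the list, beside 5.17% of all genes tested. They included every tested subunit of the MCM2-7 helicase, which unwinds DNA ahead of the fork: MCM2 (-0.86), MCM3 (-0.62), MCM4 (-0.80), MCM5 (-0.71), MCM6 (-0.66) and MCM7 (-0.59). MCM2 had intensities of 378.7, 396.3 and 402.6 on the lowest-CCND1 arrays, against 725, 783.7 and 680.0 on the all-targets-high arrays, and the sets did not overlap (difference -0.86, SE 0.06, limma adjusted p = 2.14e-05). GINS2, a subunit of the GINS complex that joins the helicase, fell most in the list. Its intensities were 1383, 1305 and 1570.1 on the lowest-CCND1 arrays, against 3067, 2799 and 2992 on the all-targets-high arrays (difference -1.05, SE 0.07, adjusted p = 2.12e-05). CDC45, the third part of the same helicase, had 981.2, 903.5 and 992.1 against 1759, 1618 and 1662 (difference -0.80, SE 0.06, adjusted p = 2.57e-05). The factors that load the helicase on origins, CDT1 (-0.74), ORC1 (-0.71) and CDC6 (-0.42), the sliding clamp PCNA (-0.69) and its loader subunit RFC4 (-0.78), the primase PRIM1 (-0.74) and the nucleotide-supply enzymes TYMS (-0.75), RRM1 (-0.62) and RRM2 (-0.72) were called lower as well. E2F1 (-0.01), TK1 (0.15) and TIMELESS (0.15) were among the 13 members that did not pass the test. With each array left out in turn, 31 to 35 of the 48 genes were called lower, and 29 were with the labelled treatment as a block.

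The promoters of the S-phase genes often held a match to an E2F site, which is why the stretches below are shown. RefSeq promoter sequences (GRCh38.p14, from 250 bases before to 50 after each gene's start) were searched on both strands for TTTCCCGC, TTTCGCGC, TTTGCCGC and TTTGGCGC, which differ at inner letters and can overlap where one lies on each strand. A match stood in 20 of the 44 tested list members with a sequence (45.5%). It stood in 4.88% of the 10822 tested genes with one and in 3.33% of all 27305 promoters in the table. Since the list was drawn from E2F targets and replication genes, its share describes the list and not the arrays. Of the 35 list members called lower, 31 had a sequence and 16 of those a match. Of all genes with a sequence, 12.8% of those called lower and 3.58% of those called higher held a match, list members included. Members on a chromosome that was left out of the display are not shown, so larger decreases may be missing. Among the other members with a match, the 4 with the largest decrease are shown 5′ to 3′ on the strand of the gene, with the matches in capitals. Those of GINS2 (chr16:85688955-85689074, minus strand), TYMS (chr18:657533-657652, plus strand) and CDT1 (chr16:88803669-88803788, plus strand) are the 120 bases before the start. That of MCM2 (chr3:127598404-127598433, plus strand) is the 30 bases around a pair of overlapping matches, one on each strand.
GINS2: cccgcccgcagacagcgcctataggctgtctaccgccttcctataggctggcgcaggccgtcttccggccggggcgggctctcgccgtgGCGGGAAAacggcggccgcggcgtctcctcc
TYMS: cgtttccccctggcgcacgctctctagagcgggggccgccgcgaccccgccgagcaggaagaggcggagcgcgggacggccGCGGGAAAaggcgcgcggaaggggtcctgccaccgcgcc
CDT1: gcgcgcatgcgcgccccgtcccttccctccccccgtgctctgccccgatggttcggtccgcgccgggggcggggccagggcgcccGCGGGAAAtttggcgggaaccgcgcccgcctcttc
MCM2: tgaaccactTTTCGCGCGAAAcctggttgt
The same 8 letters, GCGGGAAA, stood 31 bases before the start of GINS2, 39 before that of TYMS and 35 before that of CDT1. A match of letters is a description and not a site shown to be bound.

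The mitotic genes fell as a second group. Of 47 tested G2/M and mitosis genes, 35 were called lower and 1, KIF23 (0.25), higher, with a median difference of -0.39. These shares were 74.5% lower and 2.13% higher, beside 5.17% and 3.07% of all genes tested. NUF2, part of the NDC80 complex that ties kinetochores to microtubules, had intensities of 194.5, 173.9 and 250.7 on the lowest-CCND1 arrays, against 521.8, 507.1 and 691 on the all-targets-high arrays, and the sets did not overlap (difference -1.40, SE 0.13, limma adjusted p = 7.15e-05). Its 2 other tested probes were called lower too (-0.73 and -0.29). Its partners NDC80 (-0.51), SPC24 (-0.43) and SPC25 (-0.61) were lower too. MAD2L1, which holds the spindle checkpoint until chromosomes attach, had 1284, 1254 and 1453 against 2415, 2507 and 2509.8 (difference -0.89, SE 0.06, adjusted p = 2.14e-05). CDCA3, a trigger of mitotic entry, was at 790.9, 692.3 and 844.9 against 1574, 1570.1 and 1359 (difference -0.94). The spindle motor KIF11 (-0.72), the mitotic kinases CDK1 (-0.62), AURKB (-0.56), TTK (-0.50) and BUB1 (-0.42), the proliferation antigen MKI67 (-0.49) and the survival factor BIRC5 (-0.45) were called lower. PLK1 (0.14), AURKA (-0.04), CCNB2 (0.04) and TOP2A (0.04) did not pass the test. Between 30 and 33 members were called lower when each array was left out in turn, and 24 with the labelled treatment as a block. The call of KIF23 (adjusted p = 0.0236) ended in both fits of all 12 arrays, with the smaller offset, and without no siRNA 2, cyclin D1 siRNA 2, no siRNA 1 or CDK4/6 siRNA 1, and with the mean over its probes its difference was -0.08.

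Few of the mitotic promoters held an E2F match (3 of 39, 7.69%), and most held the short letters of a cell cycle homology region, the element that the MuvB complex reads. TTTGAA or TTCGAA, searched on both strands of the same RefSeq windows, stood in 29 of the 39 members with a sequence (74.4%). The same letters stood in 12.6% of the tested genes, 16.6% of all promoters and 3 of the 44 E2F and replication genes (6.82%). The share of the list describes the list and not the arrays. Of all genes with a sequence, 20.6% of those called lower and 12.8% of those called higher held these letters, list members included. Members on the chromosome left out of the display above were left out here too. For the 4 others with a match that fell most, the 30 bases around it are shown on the gene's strand, the match in capitals. They lie at chr1:163321958-163321987 (plus strand), chr12:6851272-6851301 (minus), chr4:120066807-120066836 (minus) and chr10:92593090-92593119 (plus) of GRCh38.p14.
NUF2: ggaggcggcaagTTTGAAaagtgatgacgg
CDCA3: cgtggcgggaagTTTGAAactggtaacttc
MAD2L1: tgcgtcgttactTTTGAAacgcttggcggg
KIF11: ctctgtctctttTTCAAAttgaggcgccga
In this window the match began 3 bases before the start in CDCA3 and 28 before it in KIF11, and at base 17 after the start in NUF2 and base 25 in MAD2L1.

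Both groups were also lower on the other 6 arrays than on the all-targets-high arrays. On the 3 lowest-CCND1 arrays the median of the E2F and replication list was -0.57, -0.62 and -0.47 relative to the mean of the all-targets-high arrays. It was -0.43 to -0.33 on the intermediate-CCND1 arrays, -0.61 to -0.46 on the low-CDK4 arrays and -0.02 to 0.04 on the all-targets-high arrays. All 9 arrays outside the all-targets-high set thus lay below it, and the lowest-CCND1 and low-CDK4 ranges overlapped. The mitotic list was at -0.39 to -0.37 on the lowest-CCND1 arrays, below the -0.30 to -0.20 of the intermediate-CCND1 arrays, the -0.23 to -0.13 of the low-CDK4 arrays and the -0.02 to 0.02 of the all-targets-high arrays. The ranges of this list did not overlap between the lowest-CCND1 arrays and any other set, but that spacing was not tested.

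**Figure D3:**
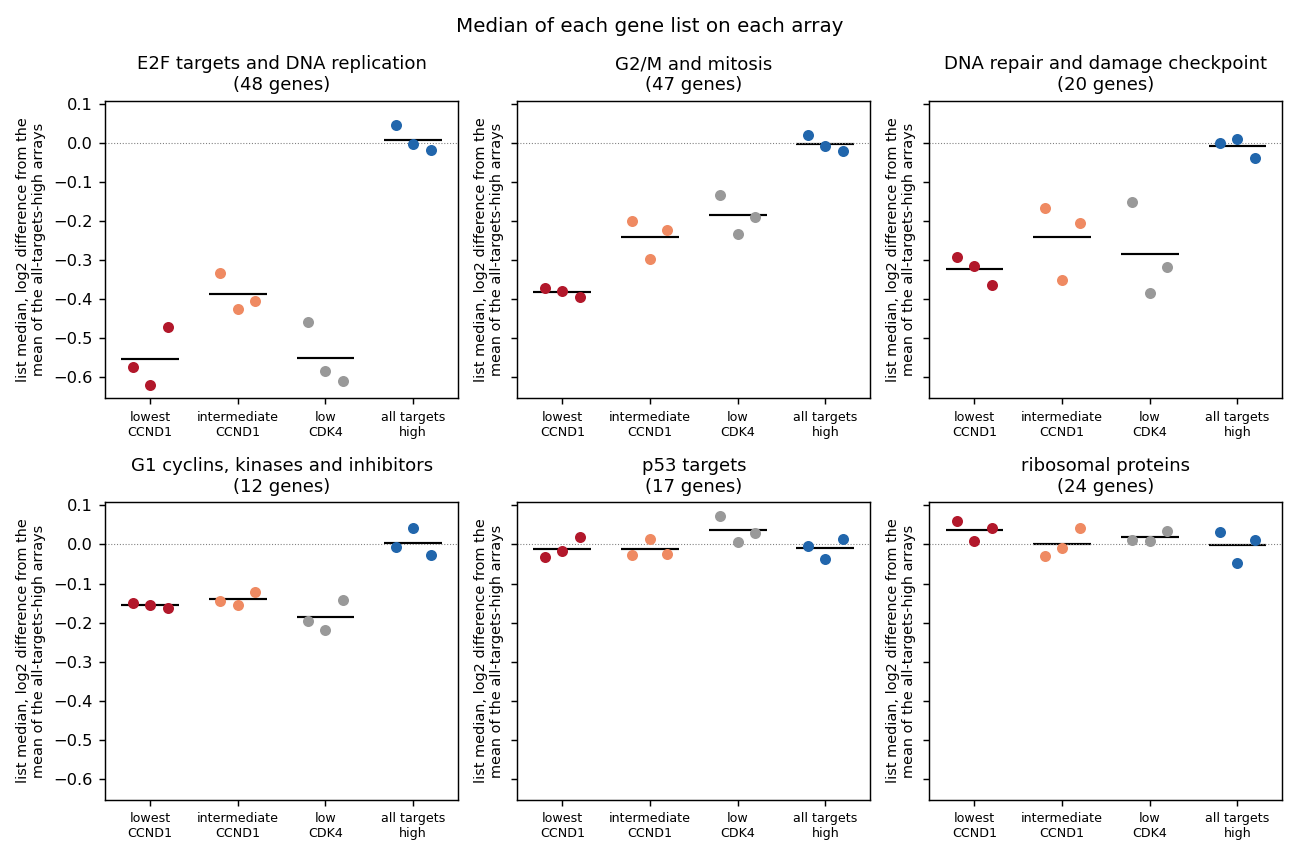
Median of 6 gene lists on each array (points) as the log2 difference from the mean of the all-targets-high arrays, with the mean of each set (line). The E2F and replication list is at -0.62 to -0.47 on the lowest-CCND1 arrays and at -0.61 to -0.46 on the low-CDK4 arrays, while p53 targets and ribosomal proteins lie between -0.05 and 0.07 on every array.

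Among the genes of G1 and the RB-E2F machinery, CDC25A, CDKN2D, LIN54 and LIN9 fell most. Of 12 tested G1 cyclins, kinases and inhibitors, 3 were called lower (25%, beside 5.17% of all genes tested) and 0 higher: CDC25A (-0.69), the phosphatase that activates CDK2, CDKN2D (-0.60), an INK4 inhibitor of CDK4 and CDK6, and CCNA2 (-0.45), the S-phase cyclin. CDC25A had 261.7, 301.1 and 307.6 on the lowest-CCND1 arrays, against 460.1, 514.1 and 463.5 on the all-targets-high arrays (limma adjusted p = 0.000139), but its second probe was at 0.17 (adjusted p = 0.101), so its probes disagree. The second probe of CDKN2D, near background, was at -0.06. CCND3 (-0.04), CCND2 (0.17), CCNE1 (-0.22), CDK2 (-0.26) and CDKN1B (-0.17) did not pass the test. Of 13 tested RB and E2F family genes, 4 were called lower (30.8%), the MuvB subunits LIN54 (-0.60) and LIN9 (-0.59), the pocket protein RBL1 (-0.45) and the E2F partner TFDP1 (-0.38), and 1 was called higher, E2F5 (0.48). E2F5, a repressive E2F, had 674.8, 681.0 and 628.4 on the lowest-CCND1 arrays, against 506.1, 484.1 and 415.7 on the all-targets-high arrays (adjusted p = 0.00183). The calls of E2F5, RBL1 and TFDP1 ended with the labelled treatment as a block, which left LIN54 and LIN9 of this list. Over the alternatives the adjusted p of E2F5 ranged from 0.00151 to 0.192 and that of RBL1 from 0.000965 to 0.0661, and that of TFDP1 was 0.0613 with the block.

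DNA repair genes were lower as well. Of 20 tested repair and checkpoint genes, 11 were called lower (55%, beside 5.17% of all genes tested) and 0 higher, with a median of -0.32. RAD54L, a motor of homologous recombination, had 192.9, 187.3 and 260.3 on the lowest-CCND1 arrays, against 375.1, 384.1 and 402.4 on the all-targets-high arrays (difference -0.82, SE 0.10, limma adjusted p = 0.000364). EXO1, the nuclease that resects breaks and mismatches, had 723.4, 672.8 and 758.8 against 1344, 1225 and 1243 (difference -0.81, SE 0.06, adjusted p = 3.14e-05). FANCI (-0.73), of the crosslink repair pathway, and XRCC3 (-0.64), a recombination repair gene, were lower, and BRCA1 (-0.56), CHEK1 (-0.48) and BLM (-0.62) were as well. ATM (-0.12), TP53BP1 (0.08) and BARD1 (0.04) did not pass. Of 11 tested histone genes, H2AX (-0.47) and H1-10 (-0.28) were lower and H2BC5 was higher. These shares were 18.2% lower and 9.09% higher, beside 5.17% and 3.07% of all genes tested. The call of H2AX ended with the treatment label as a block (limma adjusted p 0.000481 to 0.0972 over the alternatives). That of H1-10 ended without no siRNA 2, no siRNA 1 or CDK4/6 siRNA 1. It also ended with the smaller offset, in the fit of 12 arrays in 4 sets and with the treatment label as a block. None of the 17 tested p53 targets was called, with a median of 0.01.

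Of the 6 largest decreases, 5 were of genes outside the cell cycle and repair lists and 1 was NUF2, and GINS2 and CDCA3 followed. YAP1, the transcriptional coactivator of the Hippo pathway, had intensities of 740.4, 662.2 and 720.8 on the lowest-CCND1 arrays, against 1958, 2310.3 and 2058 on the all-targets-high arrays, a ratio of 0.336. The difference was -1.55 (SE 0.07, limma adjusted p = 1.47e-06), and the intermediate-CCND1 and low-CDK4 arrays lay between 1649 and 1864, so the lowest-CCND1 arrays stood below all other 9. The other tested members of the YAP1, TEAD and target list did not follow at that size: of 17, 2 were called lower, YAP1 and NT5E (-0.36), and the median was -0.03. These 2 were 11.8% of the list, beside 5.17% of all genes tested. The intensities of NT5E overlapped, and its call ended in 11 of 18 alternatives, among them without non-targeting siRNA 1, no siRNA 2, cyclin D1 siRNA 1 or CDK4/6 siRNA 1.

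CEP20, a centrosomal and ciliary protein, had 737.7, 650.8 and 787.7 on the lowest-CCND1 arrays, against 1987, 2165 and 1930.5 on the all-targets-high arrays (difference -1.46, SE 0.07, limma adjusted p = 2.46e-06). ERH, a small conserved nuclear protein with roles in mRNA processing, had 1459, 1089.7 and 1423 against 3622, 2926 and 3593 (difference -1.34, SE 0.11, adjusted p = 4.45e-05). CERS6, a ceramide synthase, had 378.9, 296.3 and 335.7 against 802.9, 698.6 and 714.8 (difference -1.09, SE 0.08, adjusted p = 2.79e-05). VRK1, a chromatin kinase, had 439.8, 464.4 and 512.1 against 1007, 1055 and 950.8 (difference -1.06, SE 0.07, adjusted p = 1.53e-05). For each of these 4 genes, as for YAP1 and NUF2, every lowest-CCND1 array was below all other 9 arrays. That held for 250 of the 13434 genes (1.86%), of which 162 were also called lower, and 151 genes (1.12%) stood above all other 9.

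**Figure D4:**
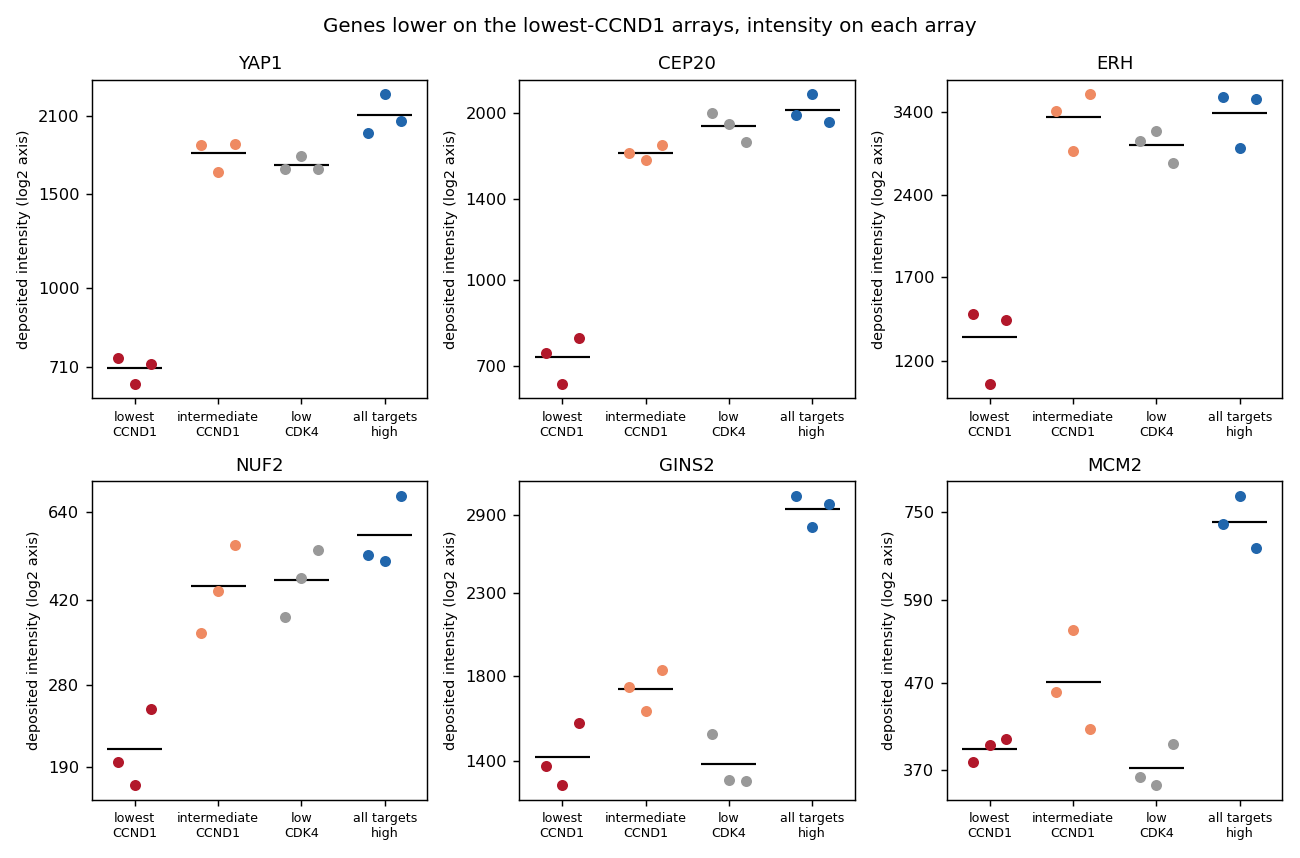
Intensity on each of the 12 arrays (points, log2 axis) with the mean of each set (line) for YAP1, CEP20, ERH, NUF2, GINS2 and MCM2. YAP1, CEP20, ERH and NUF2 lie below all other 9 arrays on the lowest-CCND1 arrays, while the lowest-CCND1 and low-CDK4 arrays overlap for GINS2 and MCM2.

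Other large decreases were not below the rest of the series. HELLS, a chromatin remodeller of replicating cells, had 327, 318.9 and 371.9 on the lowest-CCND1 arrays, against 632.2, 657.5 and 649.1 on the all-targets-high arrays (difference -0.90, limma adjusted p = 2.14e-05), and 286 to 303 on the low-CDK4 arrays. CENPU, of the inner kinetochore (-0.89), CDCA5, the cohesin regulator sororin (-0.86), and the kinase LRRK1 (-0.93) were likewise not below all other 9 arrays. LRRK1 rests on its brightest probe, since its 3 other tested probes were at -0.16, -0.04 and -0.03 and were not called. DEPDC1, a gene of dividing cells (-0.89), was below all other 9.

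Among the increases, ID1 was above all other arrays. ID1 had 1719, 1734 and 1750.0 on the lowest-CCND1 arrays, against 1185, 1114 and 1278 on the all-targets-high arrays, a ratio of 1.46. The difference was 0.54 (SE 0.06, limma adjusted p = 0.000261), and all 3 arrays were above the other 9, of which the highest was 1451. The call held in 17 of 18 alternatives and ended only under the methods' test after adjustment, which called 0 genes in all. A second, dimmer ID1 probe was at 0.19 and was not called (adjusted p = 0.204), with 116.7 to 146.2 on the lowest-CCND1 arrays and 111.7 to 123 on the all-targets-high arrays. Of 7 tested ID and E protein genes, 2 were called higher (28.6%, beside 3.07% of all genes tested): ID1 and ID3 (0.27). ID3 had 800.1, 785.1 and 846.8 against 660.4, 623.4 and 733.4 (adjusted p = 0.0359), and its call ended in 10 of 18 alternatives, among them without non-targeting siRNA 1, no siRNA 2, cyclin D1 siRNA 2, no siRNA 1 or cyclin D1 siRNA 1. ID2 (-0.03), ID4 (0.15) and the E proteins TCF3 (-0.02), TCF4 (0.05) and TCF12 (-0.06) did not pass the test.

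The genes of EMT that the study names moved little. SNAI2 (Slug), an EMT transcription factor, had 1318, 1373 and 1475 on the lowest-CCND1 arrays, against 1156, 1122 and 1212 on the all-targets-high arrays, a ratio of 1.19 (difference 0.25, SE 0.06, limma adjusted p = 0.0296). A second SNAI2 probe was at 0.26 and was not called (adjusted p = 0.114). The intermediate-CCND1 arrays were higher on the main probe, from 1457 to 1682. CDH11 (OB-cadherin) had 3659, 3933 and 4055 against 3069, 3401 and 3332, a ratio of 1.19 (difference 0.25, SE 0.06, adjusted p = 0.0369). Both calls ended without no siRNA 2, cyclin D1 siRNA 2, no siRNA 1 or cyclin D1 siRNA 1. Both ended too on the log2 scale of the deposited intensities, with the smaller offset and with the labelled treatment as a block. That of CDH11 also ended without CDK4/6 siRNA 1 and in the fit of 12 arrays in 4 sets. The limma adjusted p reached 0.185 for SNAI2 and 0.219 for CDH11. VIM (0.05) was high and overlapped between the sets. TWIST1 (0.04) had 48.7, 50.6 and 43.6 against 49.3, 42.2 and 45.3, and SNAI1 (0.01) had 43.5, 45.9 and 45.5 against 42.6, 45 and 45.4, both near the background level of 44.5, so a change was not detectable at this level. Of 11 tested EMT transcription factors SNAI2 was the 1 called, of 22 mesenchymal genes CDH11 was, and of 21 epithelial genes 0 were. These shares were 9.09%, 4.55% and 0%, beside 3.07% of all genes tested that were called higher. A share resting on 1 call is not a result about the list. The study chose ID1, SNAI2 and CDH11 on these samples, so their direction is not independent evidence. Its array results also hold a significant increase of TWIST1 after cyclin D1 silencing, which was not seen between the sets compared here.

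The factors named with ID1 regulation gave 1 call. TGFB1, the TGF-beta ligand, was lower, with 3397, 3105 and 3039 on the lowest-CCND1 arrays, against 3794, 4006 and 3851 on the all-targets-high arrays (difference -0.29, SE 0.06, limma adjusted p = 0.0137). The call ended without no siRNA 2, cyclin D1 siRNA 2 or cyclin D1 siRNA 1. It also ended with the smaller offset and with the labelled treatment as a block. TGFB2 (0.14), TGFB3 (-0.00), KLF17 (-0.04) and SRC (-0.04) did not pass the test, and KLF17 was above the background level on 0 of the 3 lowest-CCND1 arrays and 1 of the 3 all-targets-high arrays. In the TGF-beta and BMP list 3 of 27 members were called, 3.7% higher and 7.41% lower beside 3.07% and 5.17% of all genes tested, a share near the background: FST, the activin antagonist (-0.37), TGFB1, and SMAD2, a signal transducer (0.23), whose call ended in 11 of 18 alternatives, including without any of the 3 lowest-CCND1 arrays, no siRNA 1 or cyclin D1 siRNA 1.

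**Figure D5:**
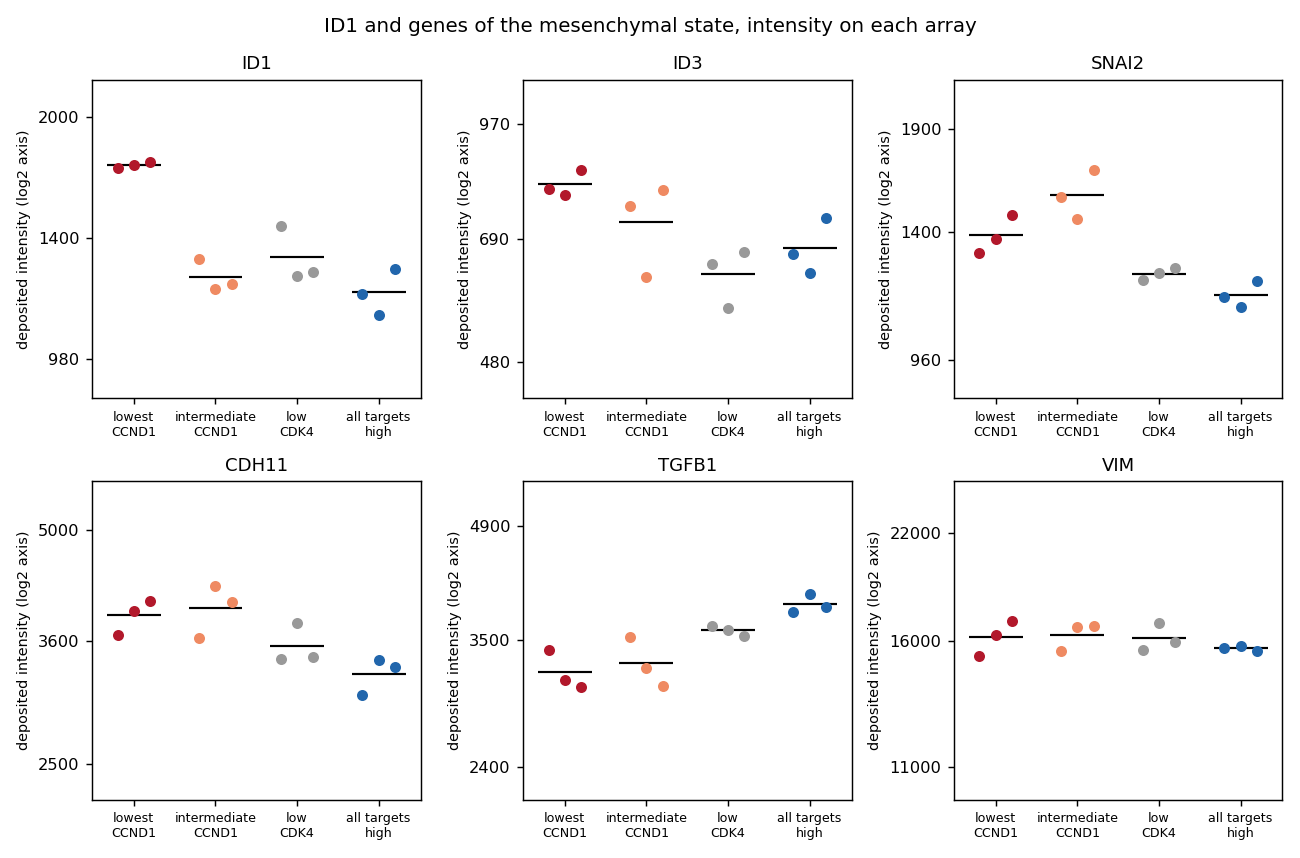
Intensity on each of the 12 arrays (points, log2 axis, each panel over its own range) with the mean of each set (line) for ID1, ID3, SNAI2, CDH11, TGFB1 and VIM. ID1 is above all other 9 arrays on the lowest-CCND1 arrays, while SNAI2 is higher on the intermediate-CCND1 arrays, at up to 1682, and VIM overlaps between sets.

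The other named increases were of varied function. H2BC5, one of a family of near-identical histone H2B genes that a probe may not tell apart, had 677.5, 732.5 and 716.2 on the lowest-CCND1 arrays, against 496.2, 509.9 and 439.2 on the all-targets-high arrays (difference 0.54, SE 0.07, limma adjusted p = 0.000398), with 635.3 to 762.6 on the intermediate-CCND1 arrays. C12orf76 had 429, 428.1 and 406.6 against 273.5, 280.0 and 299.1 (difference 0.54, adjusted p = 0.000165), and its second probe was called the same way (0.45). TSPAN31, a tetraspanin (0.49), AHNAK2 (0.48), SLC33A2 (0.47), the carboxypeptidase CPA4 (0.47), the TNF receptor family member TNFRSF14 (0.46), the sulfite oxidase SUOX (0.46), the hyaluronan-degrading CEMIP (0.46), ARL6IP5 (0.45), the interferon-induced RNA sensor OAS2 (0.45), PARP10 (0.44) and the protease inhibitor TIMP3 (0.44) completed the 15 largest. The second tested probes of H2BC5 (0.26) and PARP10 (0.12) and both further probes of OAS2 (0.25 and 0.07) did not pass the test. SLC33A2 was above all other 9 arrays, with 2053, 2043 and 1967 against 1467, 1366 and 1529. The call of TIMP3 (adjusted p = 0.0474) ended in 11 of 18 alternatives, among them without non-targeting siRNA 1, cyclin D1 siRNA 2, no siRNA 1 or cyclin D1 siRNA 1, and those of CEMIP, ARL6IP5 and PARP10 ended with the treatment label as a block.

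Set against the intermediate-CCND1 arrays, YAP1, CEP20, ERH and NUF2 were again lower and ID1 was again higher on the lowest-CCND1 arrays. This comparison shares the lowest-CCND1 arrays with the one above, so the 2 are given side by side. In it 224 genes were called higher (1.67%) and 130 lower (0.968%), of which 7 rose and 4 fell by more than 1. These 354 calls stand beside 1107 in the first comparison, but in 1 fit of all 12 arrays the calls were 505 against 809. The mean absolute log2 distance to the lowest-CCND1 arrays was 0.115 to 0.146 for the intermediate-CCND1 and 0.115 to 0.144 for the all-targets-high arrays, and within these sets it was 0.124 to 0.146 and 0.1003 to 0.106, so the counts do not show that the first difference is the greater. The 4 were ERH (-1.32), YAP1 (-1.31), CEP20 (-1.21) and NUF2 (-1.05), the 4 genes that fell most against the all-targets-high arrays. The call of NUF2 ended without non-targeting siRNA 1 or no siRNA 2. ANKRD46 (-0.87) completed the 5 largest decreases, with 415.5, 434 and 450.6 on the lowest-CCND1 arrays, against 773.2 to 843.9 on the intermediate-CCND1 arrays (limma adjusted p = 0.000237). ID1 was 0.47 higher (adjusted p = 0.00307). Of the 48 E2F and replication genes 2 were called, TYMS (-0.38) and UHRF1 (-0.44), both lower, and of the 47 mitotic genes 4 were, all lower.

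The 5 largest increases in that comparison came from low values on the intermediate-CCND1 arrays. MLLT11 had 637.1, 690.2 and 673.2 on the lowest-CCND1 arrays, against 126.1 to 154.1 on the intermediate-CCND1 arrays (difference 2.11, SE 0.07, limma adjusted p = 1.57e-05), and 530.8 to 661.5 on the all-targets-high arrays. The annexin ANXA10 (2.10), PDZD8, a lipid transfer protein of the endoplasmic reticulum (1.71), ASH2L, a subunit of histone H3 methyltransferases (1.22), and SRPRA, the signal recognition particle receptor (1.17), showed the same pattern. Against the all-targets-high arrays they differed by 0.20 (MLLT11), 0.14 (ANXA10), -0.01 (PDZD8), -0.14 (ASH2L) and 0.06 (SRPRA), and none was called there.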

How the data were processed

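RNA of 12 samples was measured on Illumina BeadChips. As deposited by the authors, the values are linear intensities of 48803 probes, brought to nearly the same distribution on every array (median 44.1). The software and method for this are named neither in the labels nor in the paper. A further table was left out, since none of its 24 per-sample columns could be tied to a label. Of the probes, 27578 have 1 gene symbol, 13 several and 21212 none in the platform annotation. Intensities were corrected with normexp (offset 50), quantile-normalised and taken to log2 with limma 3.58.1 in R 4.3.3. A probe was tested if above a background level of 44.5 (mode 39.6, SD 2.99 below it, one-sided p of 0.05) on at least 3 of 12 arrays, in place of a planned detection p that this table lacks, which kept 54.5% of probes. A gene was represented by its brightest tested probe. The 6 arrays of 2 sets were fitted with lmFit and eBayes, Benjamini-Hochberg adjusted, and the fit was tested on simulated data. Genes were named by rule: the 15 largest called, non-overlapping changes each way, the genes the study names, up to 4 called members of each list and the 5 largest each way against the intermediate-CCND1 arrays. KIF23, TFDP1 and BAK1, uncalled members and further called members of the S-phase, mitotic and repair lists were picked after their values were seen. The sets and gene lists were chosen with earlier results of these data known. Genes with rows outside the annotation were not analysed here. Promoters came from RefSeq (GRCh38.p14), and plots were drawn with matplotlib 3.10.9. The 18 alternatives for a gene's difference covered background correction, normalisation, filter, arrays in the fit, labelled treatment as a block, array weights, test, probes of a gene and leaving out each array.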

Additional observations from a re-analysis of the deposited data

How the results depend on the processing

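No paired analysis was possible because the arrays of the sets compared share only replicate number 1, and the chip was not run as a block because it is not named for any array. The lowest-CCND1 arrays were called higher than the all-targets-high arrays in 413 genes. With a normexp offset of 16 this was 114, with 12 arrays in 4 sets 241, with the labelled treatment as a block 85, and without each array in turn 146 (without non-targeting siRNA 1) to 312 (without no siRNA 1). The 694 decreases became 423 with an offset of 16, 335 with the label block and 459 (without no siRNA 2) to 635 (without CDK4/6 siRNA 1), and the share of decreases rose to 79.8% with the label block and 70.2% in the fit of 4 sets. Against the intermediate-CCND1 arrays the 224 increases ranged from 113 (without no siRNA 2) to 273 (without cyclin D1 siRNA 3) when each array was left out, and were 310 with 12 arrays in 4 sets. The 130 decreases were 195 in that fit, 70 with an offset of 16, 79 with the label block and 39 (without no siRNA 2) to 179 (without cyclin D1 siRNA 3). The methods' t-test after Benjamini-Hochberg called 0 genes in each direction of both comparisons. Limma's unadjusted p was below 0.05 for 1555 higher and 1442 lower genes against the all-targets-high arrays, and for 903 higher and 824 lower against the intermediate-CCND1 arrays. The methods' t-test without adjustment called 933 higher and 1034 lower against the all-targets-high arrays. Against the intermediate-CCND1 arrays it called 660 higher and 532 lower. The cause of these shifts was not tested. Of 74 named genes called against the all-targets-high arrays, 43 kept their call under every alternative except the adjusted t-test, 56 without each array, 44 with the label block and 65 on the log2 scale of the deposited intensities. None of these 74 changed sign under any alternative. Uncalled genes near 0 did: without each array SNAI1 ranged from -0.00545 to 0.0311, TGFB3 from -0.037 to 0.0551 (0.047 with the label block), KLF17 from -0.069 to 0.00454 and SRC from -0.0684 to 0.0139. SNAI1, TWIST1 and KLF17 were near background, which limits what their values can show.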

Other observations

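Several other gene groups held a few calls on the lowest-CCND1 arrays against the all-targets-high arrays. Of all genes tested 8.24% were called in either direction, so 1 to 3 calls in the lists of 22 to 32 genes are near or below the background share and are not a result about the list. Among 23 tested apoptosis regulators, BIRC5 (-0.45), MCL1 (-0.39) and BCL2 (-0.34), which protect cells from death, were called lower (13%). BAK1 (0.26), a pore-forming effector, and CFLAR (0.27), an inhibitor of caspase-8, were called higher (8.7%). Beside these shares, 5.17% of all genes tested were called lower and 3.07% higher, and the list was not tested as a whole. The calls of CFLAR and BAK1 ended without non-targeting siRNA 1, no siRNA 2 or cyclin D1 siRNA 1, and that of BAK1 also without cyclin D1 siRNA 2 or no siRNA 1. MCL1 had 784.6, 813 and 825.1 on the lowest-CCND1 arrays, against 1015, 1042 and 1147 on the all-targets-high arrays, and lay below all other 9 arrays. Its second probe was at -0.13 and was not called. ATF3, a stress-induced transcription factor, was at 1037, 926.8 and 928.7 against 1682, 1288 and 1372 (-0.57) and was the 1 call among 25 genes of folding and endoplasmic reticulum stress. The growth factor HBEGF (-0.32) was the 1 call among 26 immediate early and ERK feedback genes. The heat shock co-chaperone DNAJB1 (-0.27) was the 1 among 13 heat shock genes (7.69%), and its call ended without non-targeting siRNA 1.

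Of 32 glycolysis and hypoxia genes, PFKM (0.36) and DDIT4 (0.28) were higher and ENO2 (-0.33) was lower, and PFKM was above all other 9 arrays at 841.2 to 884.7. The call of DDIT4 ended without non-targeting siRNA 1. INSIG1, which restrains sterol synthesis, was lower (-0.58) and the other 22 tested lipid synthesis genes were not called, but a second INSIG1 probe was at -0.05. Of 32 interferon genes, OAS2 (0.45), IFIT5 (0.35) and IFITM2 (0.23) were higher, and the call of IFITM2 ended without any 1 of the 6 arrays. Of 13 tested RNA interference genes, the microRNA processing genes DGCR8 (-0.36) and AGO2 (-0.28) were called lower (15.4%, beside 5.17% of all genes tested). The calls of AGO2, RPS10 (-0.23), NPC1 (-0.31), ADAM17 (0.23), ERBB2 (0.27) and ERBB3 (0.22) each ended without at least 4 of the 6 arrays taken singly. NDUFB5, a subunit of respiratory complex I, was lower at 3238, 3069 and 3161 against 4258, 4450 and 4011 (-0.42) and below all other 9 arrays, and was the 1 call among 22 oxidative phosphorylation genes. CD14 was higher at 376.4, 324.2 and 339.3 against 264.7, 245.2 and 272.1 (0.39), with a second probe at 0.09. None of 21 Notch genes, 19 inflammatory genes, 18 integrin, laminin and collagen genes, 21 MYC target and ribosome biogenesis genes or 3 qPCR reference genes was called. The calls of MCL1, ATF3, INSIG1, ENO2, DDIT4, DGCR8, DNAJB1, CD14, CFLAR and BAK1 ended with the labelled treatment as a block. Those of HBEGF, DNAJB1, DDIT4, CFLAR and BAK1 ended with an offset of 16. The calls of IFITM2, AGO2, RPS10, NPC1, ADAM17, ERBB2 and ERBB3 ended under both of these settings. The limma adjusted p of each call was below 0.05, and the cause of none was tested.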
